A study of Homo sapiens with 4 samples.

Results

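The genes described here are the 9 members of the SF3b and SF3a complexes named for this report: SF3B1, SF3B2, SF3B3, SF3B4, SF3B6 and PHF5A of SF3b, and SF3A1, SF3A2 and SF3A3 of SF3a. They were chosen by name, and their introns are the annotated introns of their GENCODE 29 transcripts that have a row in at least 1 sample. That gave 147 unique introns of 209592 in the tables, in 9 of 17788 genes. Nascent RNA bound to chromatin was read as long PacBio molecules in 4 samples of K562, an established chronic myeloid leukaemia line. In 2 samples SF3B1 was wild type (WT) and in 2 it carried the K700E substitution. All 4 were harvested on day 4 of doxycycline at 1 µg/ml, and the extraction buffers of all 4 held α-amanitin, an inhibitor of RNA polymerase II. The labels say that doxycycline induced a modified allele; they do not say at which locus it lies, what the WT cells carry at it, or how many clones were used. Where nothing says that replicates came from separate cultures, p-values measure only the spread between these samples. For single introns that spread was pooled over all introns tested, so it is not that of the named intron.

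SF3a and SF3b are the protein parts that turn the U2 small nuclear ribonucleoprotein (U2 snRNP) into the particle that recognises the branch site of an intron. SF3b holds the helix between U2 RNA and the branch site, and SF3a joins SF3b to the rest of the particle. K700E lies in the HEAT repeats of SF3B1 and is a recurrent substitution in blood cancers, known for use of other 3′ splice sites. The comparison of WT and K700E asks here how the transcripts of the complex's own subunits are spliced while they are still on chromatin.

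The results turn on stretches of SF3B1 and SF3B3, shown here 5′ to 3′ on the transcribed strand from the GENCODE 29 transcript sequences (GRCh38). The first is exon 15 of SF3B1, chr2:197401985-197402130 on the minus strand, 146 nt long, with codon 700 of the reference reading frame in capitals; the tables hold read counts and no base calls, so the substitution itself could not be read in any sample.
SF3B1 exon 15: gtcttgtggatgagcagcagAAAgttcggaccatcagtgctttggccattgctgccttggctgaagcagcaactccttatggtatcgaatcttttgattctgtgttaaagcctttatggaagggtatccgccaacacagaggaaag
The next sequences show the 3′ splice site of SF3B1 intron 4, chr2:197418560-197418628 on the minus strand, and an annotated alternative exon inside that intron with the 40 bases before it, chr2:197418896-197418991 on the minus strand. They are given because this intron had the lowest group means of the gene's non-overlapping introns, on only 5 to 18 reads a sample. The last 2 bases of the intron are in capitals.
SF3B1 intron 4 3′ splice site: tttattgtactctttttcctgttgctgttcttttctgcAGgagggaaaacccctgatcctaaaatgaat
SF3B1 alternative exon: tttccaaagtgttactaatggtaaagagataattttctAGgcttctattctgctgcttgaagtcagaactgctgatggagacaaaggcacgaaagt
Of the 20 bases before those capitals, 16 were pyrimidines at the intron 4 site and 9 at the alternative exon.
The remaining sequences are the SF3B3 sites between which its transcripts were spliced in different ways. They are the 5′ splice site of intron 11 (chr16:70548433-70548462, plus strand, first 2 intron bases in capitals), a 29-nt exon within that intron with the 40 bases before it (chr16:70550610-70550678) and the start of the next exon with the same (chr16:70554406-70554474, last 2 intron bases in capitals in both).
SF3B3 intron 11 5′ splice site: cacattgaagGTaagcagctttttcccaat
SF3B3 29-nt exon: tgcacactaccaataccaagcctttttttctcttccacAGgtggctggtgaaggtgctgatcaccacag
SF3B3 next exon: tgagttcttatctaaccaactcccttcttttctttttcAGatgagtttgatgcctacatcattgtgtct
The 29-nt exon had 17 pyrimidines among the 20 bases before the capitals, and the next exon had 19.

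For each intron 2 deposited counts were used, that of reads covering it and that of reads holding its junction. Their ratio is the splicing efficiency, given here in percent, with ratios above 1 set to 1. Reads over an intron that were joined at another site, and so lacked its junction, count against this ratio. Samples are named WT replicate 1 and 2 and K700E replicate 1 and 2, and 4 values in a row follow that order. Over all unique introns the tables held 1346809, 1185049, 459726 and 909679 read-intron overlaps, so the first K700E sample was the shallowest. A read that covers several introns enters the sum once per intron. The labels call the cells epithelial. Of 15 erythroid and myeloid markers 10 had reads in every sample, and the whole list summed to 173 to 841 reads a sample. Of 11 epithelial markers 2 had reads in every sample (KRT8 and KRT18), and that whole list summed to 9 to 28. The epithelial cadherin CDH1 had 0, 0, 0 and 1 reads.

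Reads were spread unevenly over the 9 genes. SF3B1, the scaffold of SF3b that closes around the branch site helix, had 1983, 547, 177 and 345 overlaps over its non-overlapping introns, and SF3B3, the propeller-shaped scaffold beside it, had 844, 1039, 366 and 1047. SF3A3, the SF3a subunit with a zinc finger that contacts U2 snRNP, followed with 108, 91, 79 and 127. SF3B2, the subunit that binds SF3B4, had 45, 63, 16 and 59. The other 5 genes had fewer than 10 overlaps in at least 1 sample. Of the 147 introns, 127, 135, 101 and 121 had a row in the respective sample. At least 10 reads in every sample were found for 9 of 29 introns of SF3B1, for 21 of 33 of SF3B3, and for none of the 85 introns of the other 7 genes, so that results for single introns concern these scaffolds.

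No member gene and no member intron passed the test for a difference between K700E and WT (edgeR quasi-likelihood, Benjamini-Hochberg adjusted p under 0.05). Among introns, 27 member introns carried a contrast and 0 were called, 1 of them with an unadjusted p under 0.05. DESeq2 and limma also called 0 member introns. At these read counts the absence of a call does not show that efficiencies were equal. Over all 5093 introns tested, 5 (0.0982%) were called and 3.06% had an unadjusted p under 0.05. Over the 30 member introns with 10 reads, efficiency was lower in K700E by the group means in 19, higher in 8 and equal in 3, with a median difference of -1.67 percentage points (range -37.6 to 7.35). Over all 6141 introns with such reads the counts were 3137, 1952 and 1052, with a median of -0.26. In 6 of the tested member introns both K700E samples lay under both WT samples, and in 2 they lay above them. Over all introns tested those shares were 19.9% and 9.19%. Where overlapping annotated introns were reduced to the most used, 15 of 22 member introns were lower and 7 higher, with a median of -3.49 points against -1.69 over 4597 introns. The sample medians over these 22 member introns were 96.2 and 91.2% (WT) and 85.6 and 91.3% (K700E), so the groups overlapped. Over the 4597 introns the sample medians were 95.5 and 92.0% (WT) and 89.5 and 92.3% (K700E).

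SF3B1 transcripts were the most fully spliced of the 4 member genes that could be tested, and both K700E samples lay below both WT samples. Summed over its introns, 91.8 and 94.2% of overlaps were spliced in the WT samples, against 88.7 and 85.5% with K700E. The means were 93.0% ± 1.64 and 87.1% ± 2.26 (SD, n = 2 each), a difference of -5.89 points. The log2 odds ratio was -0.98 with a standard error of 0.70 (edgeR adjusted p = 1.00 over 4281 genes). None of those 4281 genes was called (0%), 3.64% had an unadjusted p under 0.05, and 20.8% were lower in both K700E samples and 10.1% higher in both; DESeq2 called 1 and limma 0. With any single sample left out, the difference for SF3B1 lay between -7.48 and -4.29 points.

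SF3B3 lay between 82.8 and 89.3% in all samples, and its groups overlapped. Efficiencies of 89.3 and 84.3% (WT) stood against 82.8 and 85.0% (K700E), and the means differed by -2.93 points (log2 odds ratio -0.36, standard error 0.68, edgeR adjusted p = 1.00). The SF3B3 difference was -0.42 with WT replicate 1 left out, -5.44 with WT replicate 2 left out and -7.57 with all annotated introns summed. SF3A3 had 79.6 and 78.0% in its WT samples against 65.8 and 82.7% with K700E. Its K700E samples lay on either side of WT, and the difference of -4.58 points became 3.85 without K700E replicate 1. SF3B2 was the least spliced of the 4, with 66.7 and 52.4% (WT) against 68.8 and 52.5% (K700E). Its replicates differed more than its groups, whose difference was 1.12 points. Without WT replicate 2 it was -6.02, without K700E replicate 1 -6.98, and with all of its annotated introns summed -0.15. SF3A3 and SF3B2 were not called either (edgeR adjusted p = 1.00 for both).

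**Figure D1:**
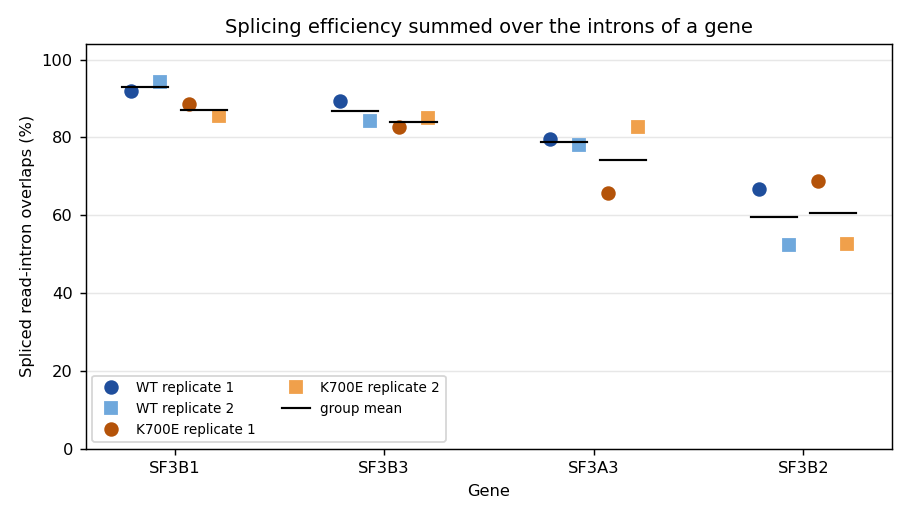
Splicing efficiency of the 4 member genes with at least 10 read-intron overlaps in every sample, in percent of overlaps summed over non-overlapping introns (vertical axis), with 1 point per sample and a line at each group mean. The 2 K700E points lie below the 2 WT points for SF3B1, and the groups overlap for SF3B3, SF3A3 and SF3B2.

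Along SF3B1, many introns were spliced in nearly all reads, and others were less spliced. In WT replicate 1, which had most overlaps, introns 3, 18, 19 and 20 were spliced in 81.3, 83.9, 73.7 and 76.1% of reads. Intron 2 was spliced in 98.5, 98.5, 90.0 and 97.9% of reads and intron 5 in 99.0, 93.8, 91.7 and 93.8%. Intron 12 (chr2:197403036-197403584, 549 nt), which had the smallest p of the gene, was spliced in 100, 97.2, 100 and 78.6% of 155, 36, 12 and 14 reads. Only K700E replicate 2 was low there. The difference of -9.33 points (edgeR adjusted p = 0.985) was 1.39 without that sample. Intron 13, with 179, 39, 16 and 18 reads, was spliced in 96.1, 100, 81.3 and 94.4%, lower in both K700E samples by a mean of -10.2 points.

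Intron 14 of SF3B1 (chr2:197402131-197402555, 425 nt) ends at the exon that holds codon 700, printed above, and had the lowest WT mean of the gene's non-overlapping introns with 10 reads in every sample. It was spliced in 68.7, 75.0, 71.4 and 73.3% of 166, 40, 14 and 15 reads. The groups overlapped, with means of 71.8% ± 4.47 and 72.4% ± 1.35 (SD, n = 2 each) and a difference of 0.54 points (edgeR adjusted p = 0.993). The difference was -0.41 without K700E replicate 2 and -2.62 without WT replicate 1. Another annotated 5′ splice site for the same exon, further into the intron, was joined in 5 of 168, 1 of 40, 2 of 14 and 1 of 17 reads. These shares of 2.98, 2.50, 14.3 and 5.88% were higher in both K700E samples by a mean of 7.35 points, on 1 or 2 reads in each, and were not called (edgeR adjusted p = 0.985). Intron 15, after that exon, was spliced in 87.9, 100, 75.0 and 71.4% of 140, 30, 8 and 14 reads. It was lower in both K700E samples, by a mean of -20.7 points. Intron 18 was also lower in both (-14.5 points), and intron 20 was higher in both (17.5 points). These introns had too few reads for the test and were picked after their values were seen.

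Reads over intron 4 of SF3B1 (chr2:197418589-197420427, 1839 nt) were few and poorly spliced in all samples. The intron was spanned by 16, 8, 5 and 18 reads, of which 11, 4, 2 and 6 had the junction. The shares were 68.8, 50.0, 40.0 and 33.3%, lower in K700E in both samples, with 95% Wilson intervals that overlap between all 4 (44.4 to 85.8% in WT replicate 1 and 16.3 to 56.3% in K700E replicate 2). It had too few reads for the test and was picked after its values were seen. Intron 3 before it was spanned by 75, 70, 11 and 54 reads and intron 5 after it by 96, 16, 12 and 16. The last 307 nt of intron 4, annotated as an intron after the alternative exon printed above, were spanned by 134, 29, 19 and 27 reads, of which 9, 5, 1 and 0 had that junction and 11, 4, 2 and 6 the junction of the whole intron. The junction into the alternative exon was seen in 1, 0, 1 and 0 reads. More reads thus held the end of intron 4 than spanned the whole of it in all 4 samples, and most of them had neither junction.

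**Figure D2:**
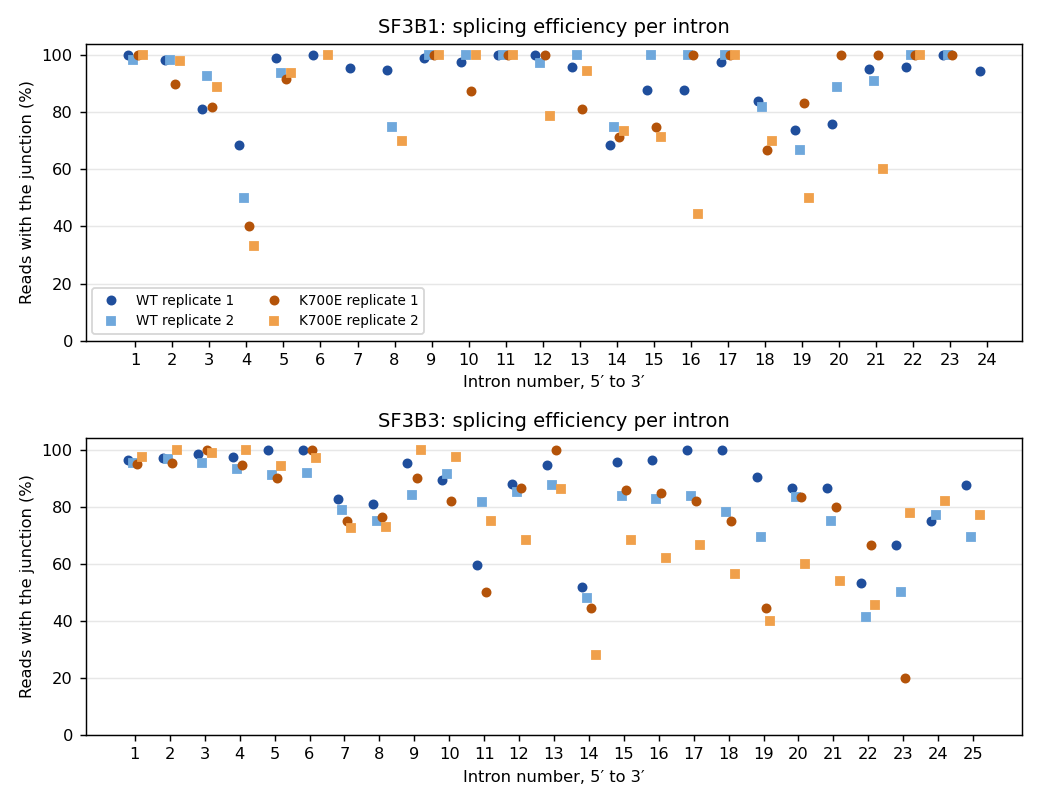
Splicing efficiency in percent of reads (vertical axis) for each intron of the main SF3B1 and SF3B3 transcripts, numbered 5′ to 3′ (horizontal axis), with 1 point per sample that had at least 5 reads over the intron. In SF3B1, introns 4, 14 and 19 lie below their neighbours in WT replicate 1, and in SF3B3 the points spread downwards after intron 10.

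SF3B3 differed most at intron 19, the shortest intron of its main transcript (chr16:70565271-70565367, 97 nt). It was spliced in 19 of 21, 18 of 26, 8 of 18 and 8 of 20 reads. The efficiencies were 90.5% (95% Wilson interval 71.1 to 97.3%) and 69.2% (50.0 to 83.5%) in WT, and 44.4% (24.6 to 66.3%) and 40.0% (21.9 to 61.3%) in K700E. Both K700E samples were low, and the means were 79.9% ± 15.0 and 42.2% ± 3.14 (SD, n = 2 each). The difference was -37.6 points, with a log2 odds ratio of -2.31 and a standard error of 1.04 . It was the member intron with an unadjusted p under 0.05 and did not pass the adjustment over all introns (edgeR adjusted p = 0.985). Its unadjusted p was above 0.05 with DESeq2, with an estimated dispersion, with the replicate block and with WT replicate 1 or either K700E sample left out. That of SF3B1 intron 12 was under 0.05 with DESeq2, limma and an estimated dispersion. Leaving out WT replicate 1 gave -27.0 points, and leaving out WT replicate 2 gave -48.3. The Wilson intervals cover counting error only and treat reads as independent. PCR copies of a molecule cannot be told from separate molecules, so the intervals may be too narrow even for that.

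Among the other SF3B3 introns, the first 6 were nearly fully spliced in every sample. They ranged from 90.0 to 100%, and intron 3 (98.4, 95.3, 100 and 99.0%) was the only one of these 6 higher in both K700E samples. Intron 7 (82.7, 78.8, 75.0 and 72.6%) and intron 17 (100, 83.9, 81.8 and 66.7%) were lower in both K700E samples, by -6.98 and -17.7 points. Intron 19 did not stand alone, since introns 14 to 21 were each lower in K700E by the group means. Apart from intron 19, these differences lay between -23.5 (intron 18) and -12.7 points (intron 15). Introns 14 and 18 were also lower in both K700E samples. Intron 13 before this run and intron 22 after it were higher by the means (2.13 and 8.81 points). The run includes introns with too few reads for the test and was picked after its values were seen. Intron 8 (chr16:70539208-70541668) had the lowest WT mean of the non-overlapping SF3B3 introns with 10 reads in every sample. It was spliced in 80.9, 75.0, 76.5 and 72.9% of reads, and the groups overlapped (-3.25 points, edgeR adjusted p = 0.990). Single samples set the size of this difference, which ranged from -6.18 (WT replicate 2 left out) to -0.32 (WT replicate 1 left out), with -1.45 when K700E replicate 2 and -5.04 when K700E replicate 1 was left out. Intron 14 of SF3B3, with 9 reads in K700E replicate 1, was lower still in all samples, with 14 of 27, 22 of 46, 4 of 9 and 9 of 32 reads spliced.

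Introns of both genes ranged from 97 to 3836 nt among the 22 that did not overlap and had 10 reads in every sample. Length and mean efficiency had a Spearman's rho of 0.47 over these 22 introns, which share libraries and often the same reads. Of the 22, 8 were spliced in at least 90% of reads in every sample.

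**Figure D3:**
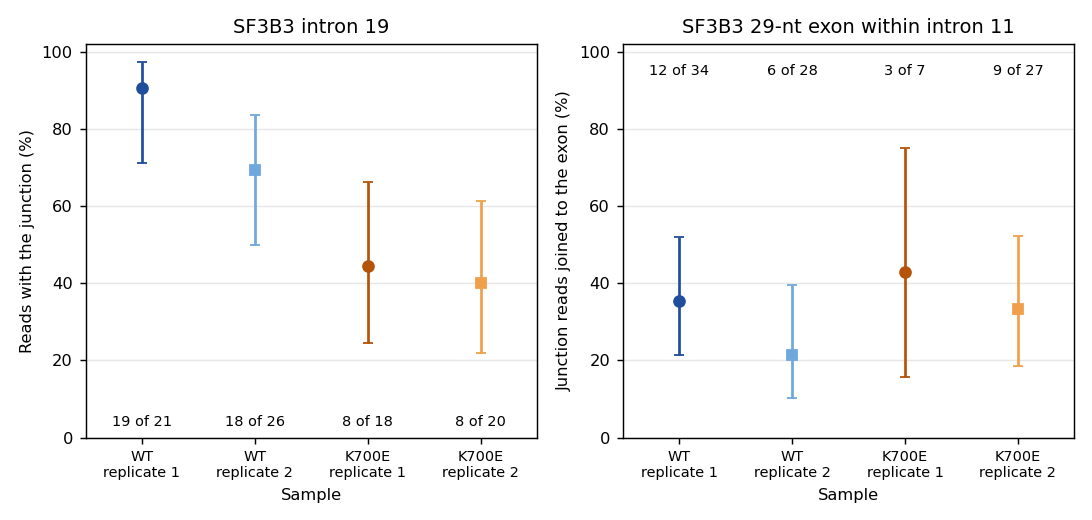
Left, share of reads over SF3B3 intron 19 that hold its junction; right, share of junction reads from the intron 11 5′ splice site that join the 29-nt exon, both in percent (vertical axis) for each sample (horizontal axis) with 95% Wilson intervals and the counts. At intron 19 both K700E points (44.4 and 40.0%) lie below both WT points, and the exon shares overlap between groups.

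At the 5′ splice site of SF3B3 intron 11, reads were joined either to the next exon or to the 29-nt exon (chr16:70550650-70550678), which GENCODE 29 places in a transcript annotated for nonsense-mediated decay. This site lies outside the rule for named junctions, since K700E replicate 1 had fewer than 10 junction reads, and was chosen after its values were seen. The exon was joined in 12 of 34, 6 of 28, 3 of 7 and 9 of 27 junction reads, 30 of 96 in all. The shares of 35.3 and 21.4% (WT) and 42.9 and 33.3% (K700E) overlapped between the groups. With a minimum of 5 reads the difference of 9.73 points had an edgeR adjusted p of 0.885 over 1147 junctions. The junction from the exon onwards was seen in 13, 9, 3 and 8 reads, so both of its sides were joined in every sample. Of the member junctions, 1 reached 10 reads in every sample for the test of 3′ splice site choice, from the first SF3B3 5′ splice site. Its minor site was joined in 1 of 56, 0 of 84, 0 of 39 and 1 of 113 reads, where the zeros allow shares of up to 3.57 and 7.69%, and it was not called (edgeR adjusted p = 1.00). Over the 362 junctions tested 0 (0%) were called, with 2.76% at an unadjusted p under 0.05. Only annotated sites could be compared, and those less than 12 nt apart were merged. Use of unannotated or closer 3′ splice sites could therefore not be seen.

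Nascent reads of SF3B1 were high in a single WT sample. Counted over the gene's most covered intron, intron 13, there were 179 and 39 WT reads against 16 and 18 K700E reads. With the TMM scaling used for the test both K700E samples were lower, but K700E replicate 1 was close to WT replicate 2 (777 against 828). Scaled instead to the same number of read-intron overlaps, K700E replicate 1 lay above WT replicate 2 (34.8 against 32.9). The order of these samples thus depended on the scaling. The log2 fold change was -1.77 with a standard error of 0.74 (edgeR adjusted p = 0.560 over 792 genes, unadjusted p under 0.05). None of the 792 genes was called (0%), 8.08% had an unadjusted p under 0.05, and 18.8% were lower in both K700E samples; with DESeq2 size factors 1 gene was called. The SF3B1 value was -0.47 when WT replicate 1 was left out and was -2.52 when WT replicate 2 was (edgeR adjusted p = 0.0155, where 81 genes were called). Over intron 1 the counts were 35, 62, 8 and 42, so WT replicate 1 was not the highest there. SF3B3 had 69 and 90 WT reads against 43 and 116 K700E reads. Relative to library size both K700E samples were higher, as in 19.8% of the genes tested, with a log2 fold change of 0.72 and a standard error of 0.65 (edgeR adjusted p = 0.744). It was 0.44 when WT replicate 1 and 0.32 when K700E replicate 2 was left out, 0.43 over the first intron and 0.22 with the overlaps summed. Fewer cells that transcribe a gene and fewer transcripts per cell cannot be told apart in these samples.

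The position of reads along the gene differed between the SF3B1 samples. When the introns of a gene were cut into 3 parts of like number, mean reads per intron in the last over those in the first were -0.22, -1.64, -0.12 and -2.23 on the log2 scale for SF3B1, and -2.07, -2.14, -1.66 and -2.76 for SF3B3. The medians over 540 genes were -1.27, -1.48, -1.18 and -1.70. Thus SF3B1 reads fell less towards the 3′ end in WT replicate 1 and K700E replicate 1 than in the other samples, and SF3B3 reads fell towards it in every sample. Some SF3B1 values rest on few reads. Mean reads per intron were 6.5 in the first and 6 in the last part in K700E replicate 1. In the last part they were 9.38 in WT replicate 2 and 5.38 in K700E replicate 2, against 49 in WT replicate 1. The part of read position in the gene efficiencies was not tested.

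**Figure D4:**
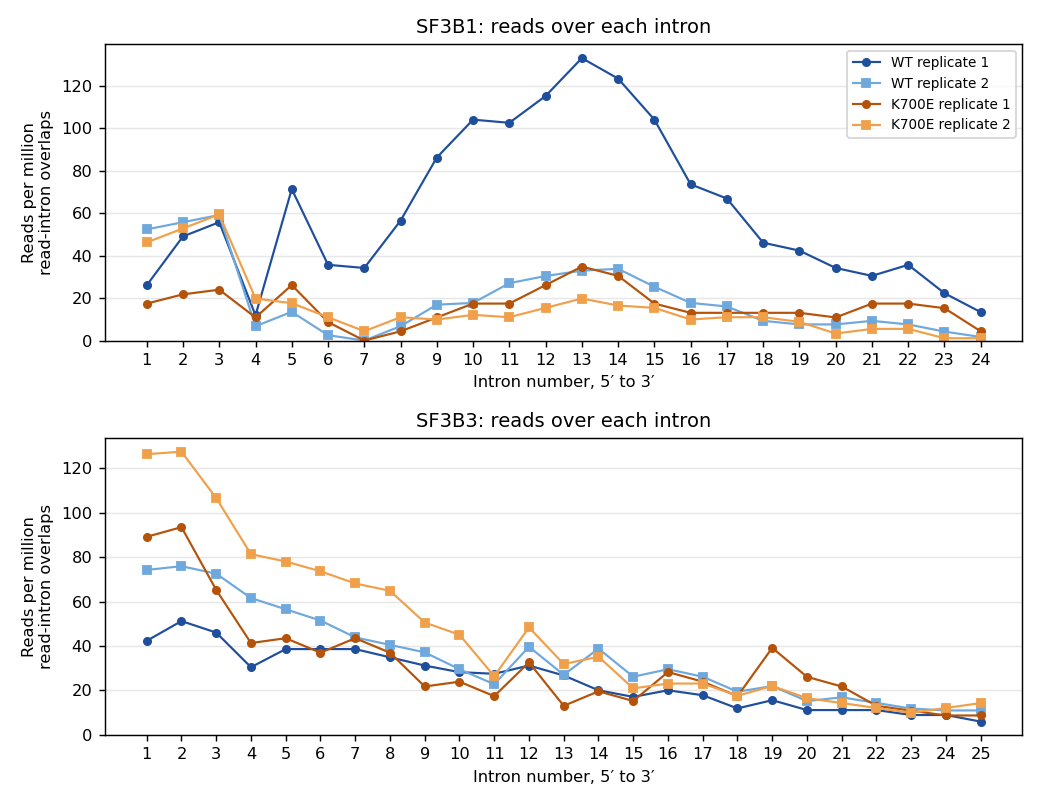
Reads over each intron of the main SF3B1 and SF3B3 transcripts (vertical axis, reads scaled to the same number of read-intron overlaps in each sample) by intron number, 5′ to 3′ (horizontal axis), with 1 line per sample. WT replicate 1 stands above the other samples from intron 5 of SF3B1 onwards, and all samples fall from intron 3 to intron 4; SF3B3 reads fall along the gene in all 4.

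The 5 members with fewest reads are given as counts of spliced among all overlaps. SF3A1, the SF3a subunit that also contacts U1 RNA, had 29 of 37, 18 of 26, 3 of 4 and 24 of 27. PHF5A, the small protein that forms the pocket for the branch site adenosine with SF3B1, had 3 of 4, 11 of 13, 1 of 1 and 10 of 11. Both genes were mostly spliced in each sample, and neither had the reads to be tested; the PHF5A shares were higher in both K700E samples, of which the first had 1 overlap. SF3B4, an RNA-binding partner of SF3B2, had 0 of 3, 10 of 12, 1 of 8 and 12 of 14, so in each group 1 sample was high and the other low. SF3B6, the subunit that lies near the branch site, had 9 of 9, 2 of 2, 1 of 1 and 4 of 7. SF3A2, a zinc finger protein of SF3a, had 1 of 8, 0 of 8, none of either kind and 3 of 3. By the 3 counts that a count of 0 leaves possible, 0 of 8 allows a share of up to 37.5%, a rough bound at so few overlaps. For 0 of 3 this rule gives no usable bound.

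Within SF3A3, introns 6, 7 and 8 were spliced in nearly all reads, for example 9 of 10, 8 of 8, 4 of 5 and 16 of 16 at intron 7. Intron 9 was spliced in 4 of 10, 5 of 6, 2 of 4 and 7 of 13, and intron 10 (160 nt) in 2 of 7, 4 of 6, 2 of 5 and 6 of 13. Towards the 3′ end, intron 13 was spliced in 6 of 6, 2 of 2, 1 of 4 and 3 of 4, lower in both K700E samples. Intron 15 was spliced in 4 of 4, 3 of 3, 2 of 5 and 2 of 2. Intron 3 was higher in both K700E samples, with 6 of 10, 6 of 9, 7 of 8 and 5 of 6. In SF3B2, intron 15 (115 nt) was spliced in 2 of 2, 1 of 8, 2 of 2 and 2 of 8, low in the samples that had more than 2 reads there. These introns were picked after their values were seen and had too few reads for a test.

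Other proteins of U2 snRNP and branch site recognition were read from a list of 25 genes, of which 24 had rows. SF3B5, the remaining SF3b subunit, had none, and as rows exist only for annotated introns this does not measure its transcription. Of these, 8 could be tested for gene efficiency: 5 were lower in K700E and 3 higher, 0 were called, and the median difference was -2.58 points against -2.90 over all genes. The smallest p belonged to RBM17, a factor in 3′ splice site choice, with 66.7 and 45.7% (WT) against 17.2 and 21.6% (K700E). DDX42, a helicase that binds SF3b, was next with 84.3 and 55.9% (WT) against 45.6 and 38.8% (K700E). SF1, the branch site binding protein that U2 snRNP replaces, had 33.3 and 27.1% (WT) against 55.6 and 57.7% (K700E), higher in both K700E samples. None of the 3 was called (edgeR adjusted p = 1.00). For nascent reads 3 of the list could be tested and 0 were called: U2SURP (41, 13, 17 and 40 reads), DDX46 (18, 25, 11 and 29) and DHX15 (91, 54, 24 and 50).

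The genes whose 4 efficiencies lay nearest to those of SF3B1, among 556 with at least 100 overlaps in every sample, were MMS22L, IARS and HEATR1, at distances of 3.80, 3.95 and 4.25 percentage points. MMS22L, a factor in the repair of stalled replication forks, had 93.3, 94.9, 85.4 and 84.7%. IARS, an isoleucyl-tRNA synthetase, had 91.2, 91.6, 87.7 and 88.3%. HEATR1, a factor in ribosome synthesis, had 93.9, 93.4, 89.3 and 89.1%.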

How the data were processed

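Per the labels' protocols, polyadenylated and ribosomal RNA were removed from chromatin-bound RNA, which was ligated to a 3′ adapter and amplified by PCR without stated molecular identifiers. Cutadapt, minimap2 and the hg38 build are named, without versions, per the submitters' processing notes. The authors deposited read counts per annotated intron and junction counts, and their ratio (CoSE), rounded; the ratio was recomputed from the counts. The rule that assigned reads to introns is not stated; of introns sharing a site, the longer had no more reads in 99.9 to 100% of pairs, as reads that must span the whole intron give. The deposited 3′ end tables bear no identifiers and were not used. Rows were placed on GENCODE 29 by transcript, start and strand (87.3 to 87.6% of rows). Junctions less than 12 nt apart were merged.

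Tests used edgeR 4.0.16 in R 4.3.3 at a Benjamini-Hochberg adjusted p under 0.05, on features whose 4 samples each had 10 reads or more. Efficiency was tested as the interaction of spliced against unspliced counts with genotype, with dispersion 0 for introns and junctions (the spread is pooled over introns) and estimated for genes; nascent reads used TMM. Of overlapping introns, gene sums kept the most used. Alternatives were DESeq2 1.42.0, limma 3.58.1, other minimums, other dispersions, left-out samples and replicate blocks. An exact permutation test of 2 against 2 samples cannot give a two-sided p below 0.333 and was not used. Each fit was tested on simulated data. Named were all 9 members, per member the introns with the smallest p and the lowest WT mean, introns with an unadjusted p under 0.05, junctions with a minor share of at least 5%, and 3 genes per list test or likeness. Members and lists were chosen with earlier results of these data known.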

Additional observations from a re-analysis of the deposited data

How the results depend on the processing

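Under the other tools, dispersions, read minimums, replicate blocks and left-out samples tried, 0 member introns were called. The median difference of member introns stayed below 0 (-3.49 to -0.22 points) with overlapping introns reduced to the most used, with other read minimums and with each sample left out. All of these values lay within the pooled SD of the sample medians within groups, which was 5.23 points. Counts over all introns and genes moved more. Introns called, 5 as reported, were 0 with DESeq2, 0 with limma, 2 with an estimated dispersion, and 0 to 12 when a sample was left out (12 without WT replicate 2). Gene efficiency calls, 0 as reported, were 1 with DESeq2 and 0 to 1 with a sample left out. Gene read calls, 0 as reported, were 1 with DESeq2 size factors, 1 with no filter and 0 to 81 with a sample left out (81 without WT replicate 2). With a sample left out, SF3B1 intron 12 ranged from -20.0 to 1.39 points, intron 14 from -2.62 to 3.71 (-0.41 without K700E replicate 2), SF3B2 from -6.98 to 9.23 (-6.02 without WT replicate 2; -0.15 with all annotated introns summed), and SF3A3 from -13.0 to 3.85. The cause of these shifts was not tested. In intron efficiency, same-numbered samples did not deviate together (r = -0.16 over 5093 introns), so numbers were not taken as pairs. Read position along genes did split by number. Its medians over 540 genes were -1.27 (WT) and -1.18 (K700E) in replicate 1 against -1.48 (WT) and -1.70 (K700E) in replicate 2. The K700E tables carry in-file numbers (MUT2, MUT3) other than those in their titles, which adds doubt to any pairing by number. The replicate block gave 3 introns, 1 gene for efficiency, 1 for reads and 0 junctions, and it called no member intron. The crossed replicate block, added after seeing the data, gave 5, 4, 0 and 0. SF3B1 over its first intron could not be tested for reads, with 8 reads in K700E replicate 1. The depth of K700E replicate 1 limited which introns could be tested.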
